A study of Mus musculus with 16 samples.

Results

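The genes described here are 10 genes that mouse oocytes use to store maternal mRNA and to control its translation: Zar1, Zar1l, Ybx2, Lsm14b, Patl2, Cpeb1, Cpeb4, Dazl, Eif4e1b and Eif4enif1. They were taken by gene name and role, from a list drawn up with earlier results of these data known, and all 10 were found, as 11 of the 28618 entries of the expression table. A growing oocyte transcribes mRNA that it does not translate at once. RNA-binding proteins pack this mRNA into ribonucleoprotein particles, keep its poly(A) tail short and hold its cap away from the translation machinery. When meiosis resumes, transcription is silent, and the oocyte depends on these stores: some mRNAs receive a longer tail and are translated, while many others are degraded before the egg is fertilised.

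RNA was sequenced from GV oocytes, arrested in meiotic prophase, and from ovulated eggs at MII, from wildtype (WT) or Psma7 cKO mice, and each of the 4 groups had 4 libraries. In Psma7 cKO mice (Zp3-Cre; Psma7 flox/flox) the recombinase is driven by the promoter of an egg-coat gene and acts in oocytes once primary follicles have formed, so the somatic cells of the ovary keep Psma7, which encodes an alpha subunit of the proteasome core. The floxed allele was made in C57BL/6 mice, and the labels do not say whether WT females carried the floxed allele without Cre. Nor do they say which libraries came from the same females. Females were 3 to 4 weeks old and received 5 IU PMSG, GV oocytes were taken 44 h later, and eggs were taken 14 to 16 h after a following hCG injection and treated with 0.3% hyaluronidase. The study reports that some ovulated Psma7 cKO oocytes did not extrude the first polar body or stayed at the GV stage. Others extruded it but stopped at telophase I. All egg libraries are labelled MII, and whether the egg groups match in stage was not tested. The labels give 5 oocytes per library (the methods of the study give a larger pool), and cDNA was made by Smart-seq2, which primes on the poly(A) tail. The amount of an mRNA and the length of its tail therefore cannot be told apart here, nor can a change per cell from a change in the share of a library, since FPKM (fragments per kilobase of transcript, scaled to all mapped fragments of the library) is a share.

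Psma7 checked the labels: it was at 142 to 201 FPKM in WT and 11.1 to 18.0 FPKM in GV oocytes of Psma7 cKO, and at 97.7 to 172 FPKM in WT and 13.6 to 59.9 FPKM in Psma7 cKO eggs. Depth, estimated from the steps between the lowest FPKM values, was 10.5 M to 15.7 M fragments per library. At these depths only 26.3% to 29.8% of the low values used lay near a whole number of fragments, so the depths are rough. All 10 oocyte markers examined had a mean of at least 1 FPKM in every group, and they summed to 8682 to 15102 FPKM per library. Of 15 cumulus and granulosa markers 3 reached a mean of 1 FPKM in any group, the list summed to 14.0 to 18.5 FPKM per library in all groups and, without Cyp19a1, to 6.39 to 8.49 FPKM in GV libraries and 2.99 to 4.91 FPKM in eggs, and 7 of them, Foxl2 and Amh among these, were below 0.1 FPKM in every library. On the first principal component of all expressed entries the WT eggs scored 80.8 to 85.9 and the Psma7 cKO eggs 57.7, 71.7, 27.3 and 54.0, with every GV library below 0. Every Psma7 cKO egg library thus scored below every WT egg library. Psma7 cKO egg replicate 3 stood apart from the other eggs, towards the GV oocytes.

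Elements in the 3′ UTR through which stored mRNAs are recognised were read from the annotation, because several of the 10 genes encode proteins that bind such elements and may carry them. The transcript with the longest annotated 3′ UTR of each gene was used (GENCODE M21, build GRCm38, which is mm10). The sense strand was searched for TTTTAT and TTTTAAT, forms of the cytoplasmic polyadenylation element (CPE) that Cpeb1 recognises; neither form contains the other. Of the 9 genes whose 3′ UTRs are described here 5 held at least 1 CPE, beside 56.6% of 20966 genes with a 3′ UTR. Among 8486 expressed genes (mean of at least 1 FPKM) with a 3′ UTR of at least 100 bases the share was 65.8%. Among these 5 the longer 3′ UTRs held more: Cpeb4 held 17 in 4102 bases, Dazl 6 in 1854, Cpeb1 4 in 1315, Lsm14b 2 in 1181 and Ybx2 1 in 414. No match was found in Eif4e1b (1063 bases), Patl2 (366), Zar1 (146) or Zar1l, whose annotated 3′ UTR is only 14 bases long. A match describes letters in this window and not a bound site. The CPE nearest the transcript end in each of these 5 genes follows in 30 bases, with the element in capitals.
Cpeb4: gggtaattcattTTTTATtaaagtcatttt
Dazl: aagtcaaaattcTTTTATgtcaccaagtca
Cpeb1: ttgacttttctTTTTAATttaacgattact
Lsm14b: aatggaaccaaaTTTTATttggcacatgtg
Ybx2: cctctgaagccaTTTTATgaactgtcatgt

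All of these lie in the 3′ UTR within a single exon. The Cpeb4 site is at chr11:31935406-31935435 on the plus strand, beginning 217 bases before the transcript end. The Dazl site is at chr17:50279752-50279781 on the minus strand (375 bases) and the Cpeb1 site at chr7:81347256-81347285 on the minus strand (249 bases). The plus strand carries the Lsm14b site at chr2:180034634-180034663 (820 bases) and the Ybx2 site at chr11:69941532-69941561 (62 bases). Ybx2 was the only one of these 5 with a CPE in the last 100 bases, where 17.1% of the 20966 genes and 20.3% of the 8486 expressed genes have one. The Pumilio element TGTANATA, held by 23.2% of the 20966 genes and 27.2% of the 8486, occurred 1 time each in Lsm14b and Cpeb1 and not in the other 7.

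In WT GV oocytes the genes spanned from 5.92 to 306 FPKM on average. FPKM is scaled to transcript length, but genes whose poly(A) tails differ in length may be captured unequally, so the order is one of captured FPKM. Zar1, an RNA-binding protein that gathers stored mRNA, was highest at 306 ± 47.5 FPKM (SD, n = 4), rank 181 of 10939 entries with at least 1 FPKM. Dazl, which promotes translation of its targets in maturing oocytes, followed at 234 ± 26.9 FPKM, and its libraries lay below those of Zar1 without overlap. Eif4enif1 (142 FPKM), Cpeb1 (130 FPKM) and Zar1l (117 FPKM) came next, with ranges that overlapped one another. Patl2 stood alone at 48.9 FPKM, Lsm14b (11.5 FPKM) and Eif4e1b (11.1 FPKM) overlapped, and Ybx2 (6.50 FPKM) and Cpeb4 (5.92 FPKM) were lowest and overlapped.

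The order was different in WT eggs. Dazl was highest at 490 ± 18.0 FPKM, rank 115 of 9186, and Zar1 followed at 294 ± 55.5 FPKM. Eif4enif1 (80.6 FPKM), Cpeb1 (25.6 FPKM) and Lsm14b (21.2 FPKM) came next in steps that did not overlap. Eif4e1b (14.9 FPKM) and Cpeb4 (14.3 FPKM) overlapped, and Zar1l (11.8 FPKM), Patl2 (2.91 FPKM) and Ybx2 (1.97 FPKM) were lowest, each clear of the next. Together the 10 genes made up 0.225% to 0.294% of the summed FPKM of a library, a range that held both stages, while the portion of their sum given by Zar1 and Dazl went from 50.8% to 59.3% in GV oocytes to 76.1% to 82.4% in eggs.

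**Figure D1:**
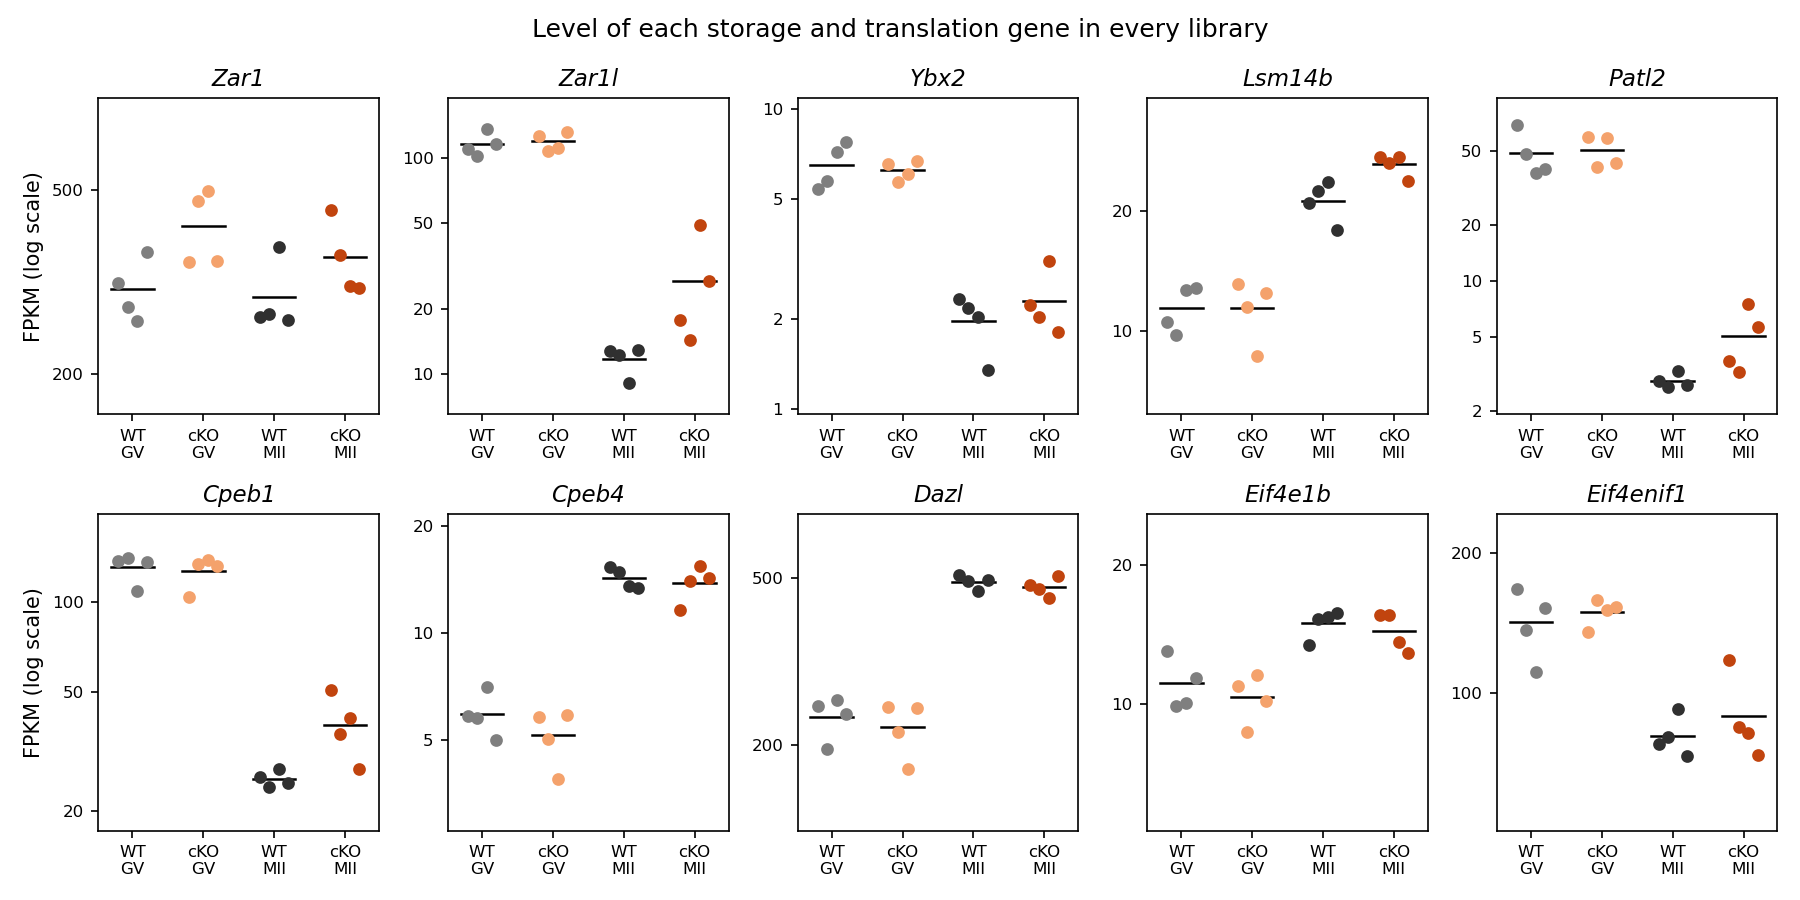
FPKM of each of the 10 genes (log axis) at both stages and in both genotypes; points are libraries, 4 per group, and lines are group means. Patl2, Zar1l, Cpeb1, Ybx2 and Eif4enif1 sit lower in eggs, Cpeb4, Dazl, Lsm14b and Eif4e1b sit higher, and Zar1 overlaps between stages.

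The transition from GV oocyte to MII egg was compared within each genotype to ask how the transcripts of this machinery change during maturation. The 10 genes did not move together. In WT, 5 fell, 4 rose and Zar1 was not called; limma with Benjamini-Hochberg adjustment over all 10475 entries tested called 78.5% of them, 52.4% lower and 26.1% higher. In Psma7 cKO the same 5 fell, the same 4 rose and Zar1 was again not called, where 74.0% of 10748 entries were called, 51.0% lower and 23.0% higher. In each of these 9 genes the libraries of the stages did not overlap in either genotype, which held for 48.7% (lower) and 23.9% (higher) of all entries in WT and for 47.2% and 21.4% in Psma7 cKO. The median log2 fold change of the 10 was -0.43 in WT and -0.50 in Psma7 cKO, beside -0.44 and -0.42 over all entries tested, and with members on either side this median lies between the values of Eif4enif1 and Zar1 and describes neither group.

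Patl2, the oocyte form of the Pat1 family of mRNP proteins, fell most. Its level in WT was 68.9, 48.4, 38.3 and 40.0 FPKM in GV oocytes and 2.89, 2.69, 3.30 and 2.78 FPKM in eggs. In Psma7 cKO it was 59.4, 41.2, 59.1 and 43.4 FPKM in GV oocytes and 3.74, 3.23, 7.57 and 5.66 FPKM in eggs. Every egg library was far below every GV library in both genotypes. The mean fell 16.8-fold in WT (log2 fold change -4.03, 95% interval -4.42 to -3.65, limma adjusted p = 7.1e-09) and 10.0-fold in Psma7 cKO (log2 fold change -3.39, -3.99 to -2.79, limma adjusted p = 6.0e-06). This placed Patl2 at the 1.30 percentile of all log2 fold changes in WT and at the 0.66 percentile in Psma7 cKO.

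Zar1l and Cpeb1 showed the same direction. Zar1l, the close relative of Zar1, was at 110, 102, 136 and 117 FPKM in WT GV oocytes and at 12.8, 12.2, 9.08 and 13.0 FPKM in WT eggs. Its mean fell 9.91-fold in WT (log2 fold change -3.31, limma adjusted p = 3.9e-09). In Psma7 cKO the mean went from 120.0 to 27.0 FPKM, a fall of 4.44-fold (log2 fold change -2.31, limma adjusted p = 0.00019). Cpeb1, the CPE-binding protein that first represses and then activates stored mRNAs, was at 137, 140.0, 109 and 135 FPKM in WT GV oocytes and at 25.9, 24.1, 27.6 and 24.9 FPKM in WT eggs. It fell 5.08-fold in WT (log2 fold change -2.34, limma adjusted p = 5.1e-09) and 3.26-fold in Psma7 cKO (log2 fold change -1.73, limma adjusted p = 2.7e-05). No egg library of either gene reached a GV library.

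Ybx2, the germ-cell Y-box protein that stabilises stored mRNA, went from 5.38, 5.73, 7.15 and 7.74 FPKM in WT GV oocytes to 2.32, 2.18, 2.03 and 1.35 FPKM in WT eggs. The log2 fold change was -1.74 in WT and -1.47 in Psma7 cKO (limma adjusted p = 1.0e-05 and 6.0e-05). The lowest of these values rests on an estimated 29.7 fragments, the fewest behind any value of the 10 genes. Another Ybx2 entry was listed at 0 to 0.0569 FPKM in all libraries and was not tested. Eif4enif1, which binds eIF4E proteins and keeps mRNA untranslated, fell less, from 142 to 80.6 FPKM in WT (log2 fold change -0.80, limma adjusted p = 0.00015) and from 150 to 89.1 FPKM in Psma7 cKO (log2 fold change -0.77, limma adjusted p = 0.00087).

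The genes that rose were Cpeb4, Dazl, Lsm14b and Eif4e1b. Cpeb4, a relative of Cpeb1, was at 5.85, 5.76, 7.05 and 5.00 FPKM in WT GV oocytes and at 15.3, 14.9, 13.5 and 13.4 FPKM in WT eggs. Its mean rose 2.41-fold in WT (log2 fold change 1.28, 95% interval 1.01 to 1.55, limma adjusted p = 2.8e-06) and 2.68-fold in Psma7 cKO (log2 fold change 1.44, 1.08 to 1.79, limma adjusted p = 3.9e-05). Dazl was at 247, 195, 256 and 236 FPKM in WT GV oocytes and at 507, 493, 465 and 495 FPKM in WT eggs. It rose 2.1-fold in WT and 2.16-fold in Psma7 cKO (limma adjusted p = 1.2e-06 and 2.7e-05).

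Lsm14b, of the RAP55 family of mRNP proteins, was at 10.5, 9.78, 12.7 and 12.8 FPKM in WT GV oocytes and at 20.9, 22.4, 23.6 and 17.8 FPKM in WT eggs. It rose 1.85-fold in WT (log2 fold change 0.89, limma adjusted p = 6.5e-05) and 2.28-fold in Psma7 cKO (log2 fold change 1.21, limma adjusted p = 4.5e-05). Eif4e1b, the oocyte cap-binding relative of eIF4E, rose least, 1.35-fold in WT (log2 fold change 0.44, limma adjusted p = 0.0043) and 1.39-fold in Psma7 cKO (log2 fold change 0.48, limma adjusted p = 0.0055). Its highest GV library was at 13.0 FPKM and its lowest egg library at 12.9 FPKM, in different genotypes, and within a genotype the stages did not overlap.

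Zar1 was at 316, 279, 261 and 368 FPKM in WT GV oocytes and at 265, 270.5, 377 and 262 FPKM in WT eggs, and the stages overlapped. The log2 fold change was -0.06 (95% interval -0.37 to 0.25) in WT and -0.22 (-0.59 to 0.15) in Psma7 cKO, and both turned positive, 0.16 and 0.03, when libraries were rescaled by their median ratio. That rescaling moved the median of all entries from -0.44 to -0.22 in WT and from -0.42 to -0.17 in Psma7 cKO, and the percentage of calls that were higher in Psma7 cKO from 31.1% to 42.0%. The other 9 genes kept their calls and directions under it. Relative to the median of all entries, the log2 fold change in WT was -3.59 for Patl2, -0.36 for Eif4enif1, 0.38 for Zar1 and 1.72 for Cpeb4.

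**Figure D2:**
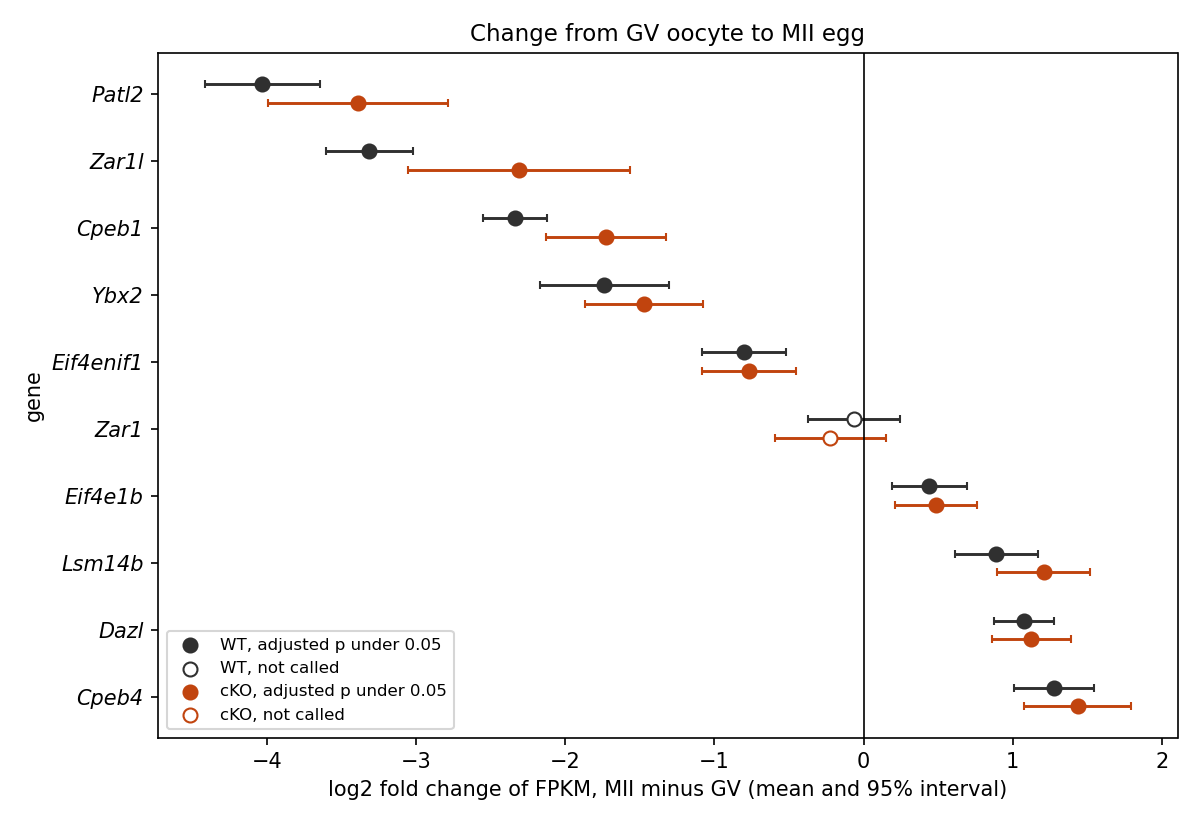
Log2 fold change of FPKM from GV oocyte to MII egg for each gene in WT and in Psma7 cKO, with 95% intervals from limma (4 libraries per group); filled points passed an adjusted p of 0.05. In both genotypes the genes run from Patl2 (-4.03 and -3.39) to Cpeb4 (1.28 and 1.44), and Zar1 alone was not called.

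A 3-fold difference between means of FPKM floored at 1 was also used, after the fold threshold that the study set between genotypes. From GV oocyte to egg, Patl2, Zar1l, Cpeb1 and Ybx2 passed in WT (4 of 10, beside 23.2% of all entries), and Patl2, Zar1l and Cpeb1 in Psma7 cKO (3 of 10, beside 18.0%). All of these were lower in eggs, as were 22.1% of all entries in WT and 17.2% in Psma7 cKO by the same rule. Without WT egg replicate 4, which had the lowest Ybx2, the WT count was 3. The Psma7 cKO count was 2 without egg replicate 4, where Cpeb1 no longer passed, and 4 without egg replicate 3, where Ybx2 passed too. After rescaling by the median ratio Ybx2 no longer passed in WT, and in Psma7 cKO Cpeb4, which is higher in eggs, passed and Cpeb1 did not.

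Psma7 cKO and WT were then compared at each stage, to ask whether loss of the proteasome subunit altered these transcripts. In GV oocytes 0 of the 10 genes were called by limma, beside 0.118% of 11062 entries, and 1, Zar1, had an unadjusted p under 0.05, as did 10.7% of all entries. Zar1 was at 350, 474, 498 and 352 FPKM in the Psma7 cKO GV libraries against 316, 279, 261 and 368 FPKM in those of WT, and 1 WT library lay within the Psma7 cKO range. The log2 difference was 0.44 (95% interval 0.12 to 0.77, limma adjusted p = 0.29). The other 9 genes had log2 differences from -0.21 for Cpeb4 to 0.09 for Eif4enif1, with intervals that included 0, and every gene overlapped between genotypes, where 4.25% of all entries were higher and 2.42% lower without overlap.

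In eggs 0 of the 10 genes were called, beside 8.02% of 9492 entries, and 4 had an unadjusted p under 0.05: Zar1l, Cpeb1, Lsm14b and Patl2, each with a higher mean in Psma7 cKO. Of all 9492 entries 29.4% had an unadjusted p under 0.05, 1952 of them higher in Psma7 cKO and 835 lower. Whether 4 of 10 departs from this background was not tested. Zar1l, Cpeb1 and Lsm14b did not overlap between genotypes, in a comparison where 13.6% of all entries were higher and 7.06% lower without overlap. The median log2 difference was 0.25 over the 10 genes and 0.07 over all entries. The count over all entries was itself unsteady: 761 entries were called, but 3 without WT egg replicate 3. Of the 761 calls 81.5% were higher, and 71.1% of 717 after rescaling by the median ratio.

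Zar1l in Psma7 cKO eggs was at 17.7, 14.3, 49.0 and 27.1 FPKM, against 12.8, 12.2, 9.08 and 13.0 FPKM in WT. Replicate 3, the library nearest to the GV oocytes on the first principal component, was the highest. The log2 difference was 1.05 (95% interval 0.29 to 1.81, limma adjusted p = 0.083), and 0.71 without replicate 3 (limma adjusted p = 0.097). Without replicate 2, the lowest, it was 1.30 and passed (limma adjusted p = 0.032). Patl2 was also highest in replicate 3, at 7.57 FPKM, where the other Psma7 cKO eggs were at 3.23 to 5.66 FPKM and WT eggs at 2.69 to 3.30 FPKM. Its log2 difference of 0.71 (0.14 to 1.29, limma adjusted p = 0.10) was 0.49 without replicate 3, and without replicate 2 it was 0.90 and passed (limma adjusted p = 0.040). Over all entries, leaving out replicate 2 moved the calls from 620 higher and 141 lower of 9492 to 1024 higher and 136 lower of 9516. Without replicates 3 and 4, an alternative added after the data were seen, the log2 difference was 0.45 for Zar1l (limma adjusted p = 0.16) and 0.26 for Patl2 (95% interval -0.11 to 0.63, limma adjusted p = 0.37). The part of the position of replicate 3 in these differences was not tested further.

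Cpeb1 in Psma7 cKO eggs was at 50.8, 36.2, 40.9 and 27.6 FPKM, against 25.9, 24.1, 27.6 and 24.9 FPKM in WT, so that the lowest Psma7 cKO library and the highest WT library were almost level. The log2 difference was 0.57 (95% interval 0.20 to 0.94, limma adjusted p = 0.060), and without Psma7 cKO replicate 4 it was 0.72 and passed (limma adjusted p = 0.033). Over all entries 360 were called higher and 58 lower of 9481 without that library. Lsm14b was at 27.3, 26.3, 27.2 and 23.7 FPKM in Psma7 cKO and at 20.9, 22.4, 23.6 and 17.8 FPKM in WT eggs, also barely apart. Its log2 difference was 0.31 (0.08 to 0.53, limma adjusted p = 0.084). Lsm14b (chr2:180024987-180035465, plus strand) is the neighbour of the deleted gene: its end lies 908 bases from that of Psma7 (chr2:180036374-180042433, minus strand), and whether this bears on its level was not tested.

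The remaining genes were closer between genotypes. The log2 difference in eggs was 0.29 for Zar1 (95% interval -0.06 to 0.63), 0.22 for Ybx2 (-0.29 to 0.73), 0.13 for Eif4enif1 (-0.19 to 0.45), -0.04 for Dazl (-0.18 to 0.10), -0.05 for Cpeb4 (-0.29 to 0.19) and -0.06 for Eif4e1b (-0.28 to 0.16). Dazl had the narrowest interval of the 10. No gene passed the 3-fold rule between genotypes at either stage, where 0.0633% of entries did so in GV oocytes and 1.78% in eggs.

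**Figure D3:**
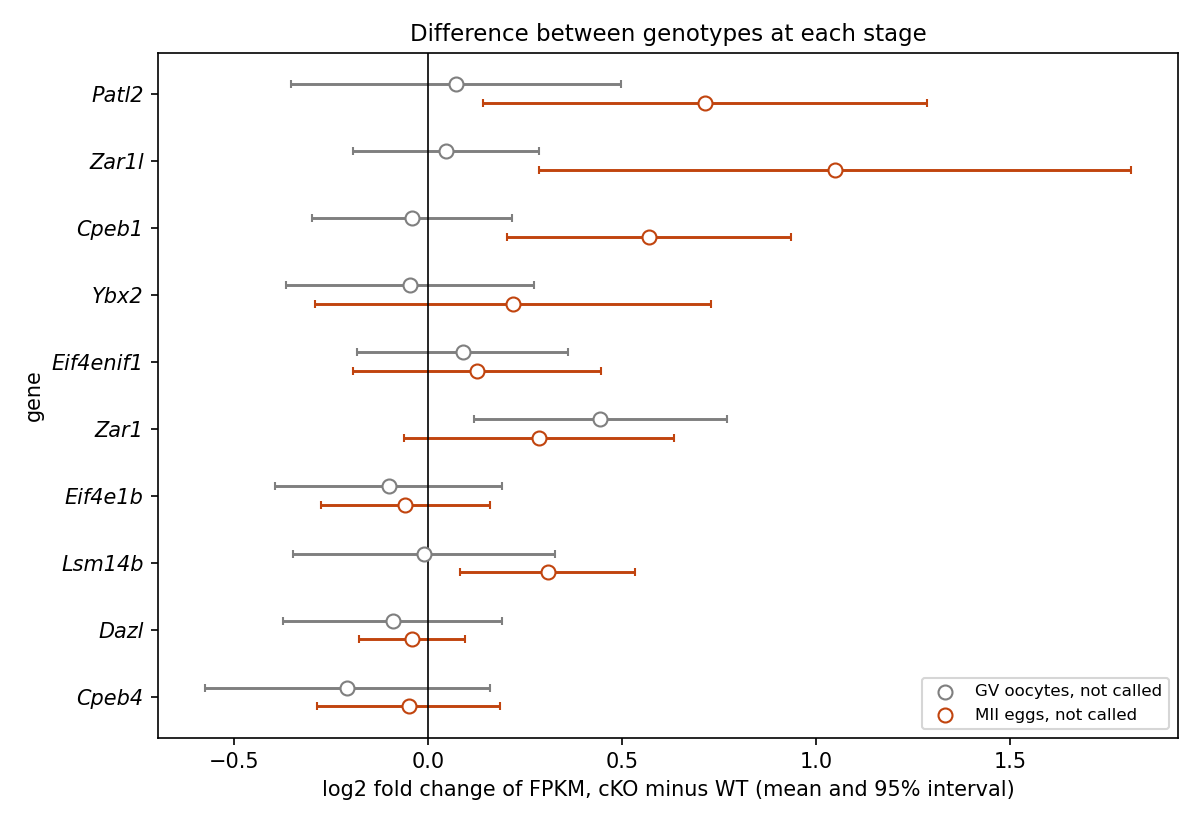
Log2 difference of FPKM between Psma7 cKO and WT for each gene in GV oocytes and in MII eggs, with 95% intervals from limma (4 libraries per group); open points did not pass an adjusted p of 0.05. In eggs the intervals of Zar1l, Patl2, Cpeb1 and Lsm14b lie above 0 although none of these genes was called.

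Whether the change at maturation differed between genotypes was tested as the interaction of genotype and stage over all 16 libraries. It called 0 of the 10 genes, beside 1.26% of 10615 entries, and 2 had an unadjusted p under 0.05, as did 17.7% of all entries. These were Zar1l (1.00 on the log2 scale, 95% interval 0.20 to 1.80, limma adjusted p = 0.17) and Cpeb1 (0.61, 0.16 to 1.06, limma adjusted p = 0.14), each falling less in Psma7 cKO. Without Psma7 cKO egg replicate 2 Zar1l passed (1.25, limma adjusted p = 0.035), and without replicate 4 Cpeb1 passed (0.76, limma adjusted p = 0.047). Over all entries the interaction called 114 higher and 20 lower of 10615 with all libraries. It called 605 higher and 46 lower of 10678 without replicate 2, and 129 higher and 16 lower of 10675 without replicate 4. With any single library left out the values ran from 0.66 (without Psma7 cKO egg replicate 3) to 1.25 for Zar1l and from 0.47 (without Psma7 cKO egg replicate 1) to 0.76 for Cpeb1, and Zar1l was at 0.41 without Psma7 cKO egg replicates 3 and 4. The smaller fall of these genes in Psma7 cKO was thus not established at the threshold with all libraries.

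Several of the 10 genes have a relative with a similar role, and the ratio within a library does not depend on the scaling of that library. Patl2 was 15.9-fold above Patl1 in WT GV oocytes and 2.26-fold below it in WT eggs. In Psma7 cKO eggs the log2 ratio of Patl2 to Patl1 was -0.18, -0.65, 0.53 and 0.13, above the WT eggs (-1.41 to -0.77) without overlap, with replicate 3 the highest. Patl1 itself averaged 4.92 FPKM in Psma7 cKO eggs and 6.61 FPKM in WT eggs. Cpeb1 exceeded Cpeb4 22.1-fold in WT GV oocytes and 1.80-fold in WT eggs. In the other direction, Zar1 exceeded Zar1l 2.62-fold in WT GV oocytes and 24.9-fold in WT eggs. Ybx2 was 7.22-fold below Ybx1, its widely expressed relative, in WT GV oocytes and 42.0-fold below in WT eggs. Eif4e1b was 5.38-fold below Eif4e, the general cap-binding protein, in WT GV oocytes and 2.28-fold below in WT eggs. In these last 4 pairs the ratios of WT and Psma7 cKO eggs overlapped.

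The ratio of Lsm14b to Lsm14a, its widely expressed relative, had its highest values in Psma7 cKO eggs. Its mean log2 value was -1.98 ± 0.21 (SD, n = 4) in WT GV oocytes, -2.02 ± 0.34 in GV oocytes of Psma7 cKO and -1.94 ± 0.19 in eggs of WT. In Psma7 cKO eggs it was -1.35 ± 0.18, and the range (-1.60 to -1.21) did not meet that of WT eggs (-2.11 to -1.76) and lay next to that of Psma7 cKO GV libraries (-2.45 to -1.65). Lsm14a itself averaged 66.5 FPKM in Psma7 cKO eggs and 81.2 FPKM in WT eggs. The ratios were not tested, and how often other pairs of genes lie apart between genotypes was not counted.

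**Figure D4:**
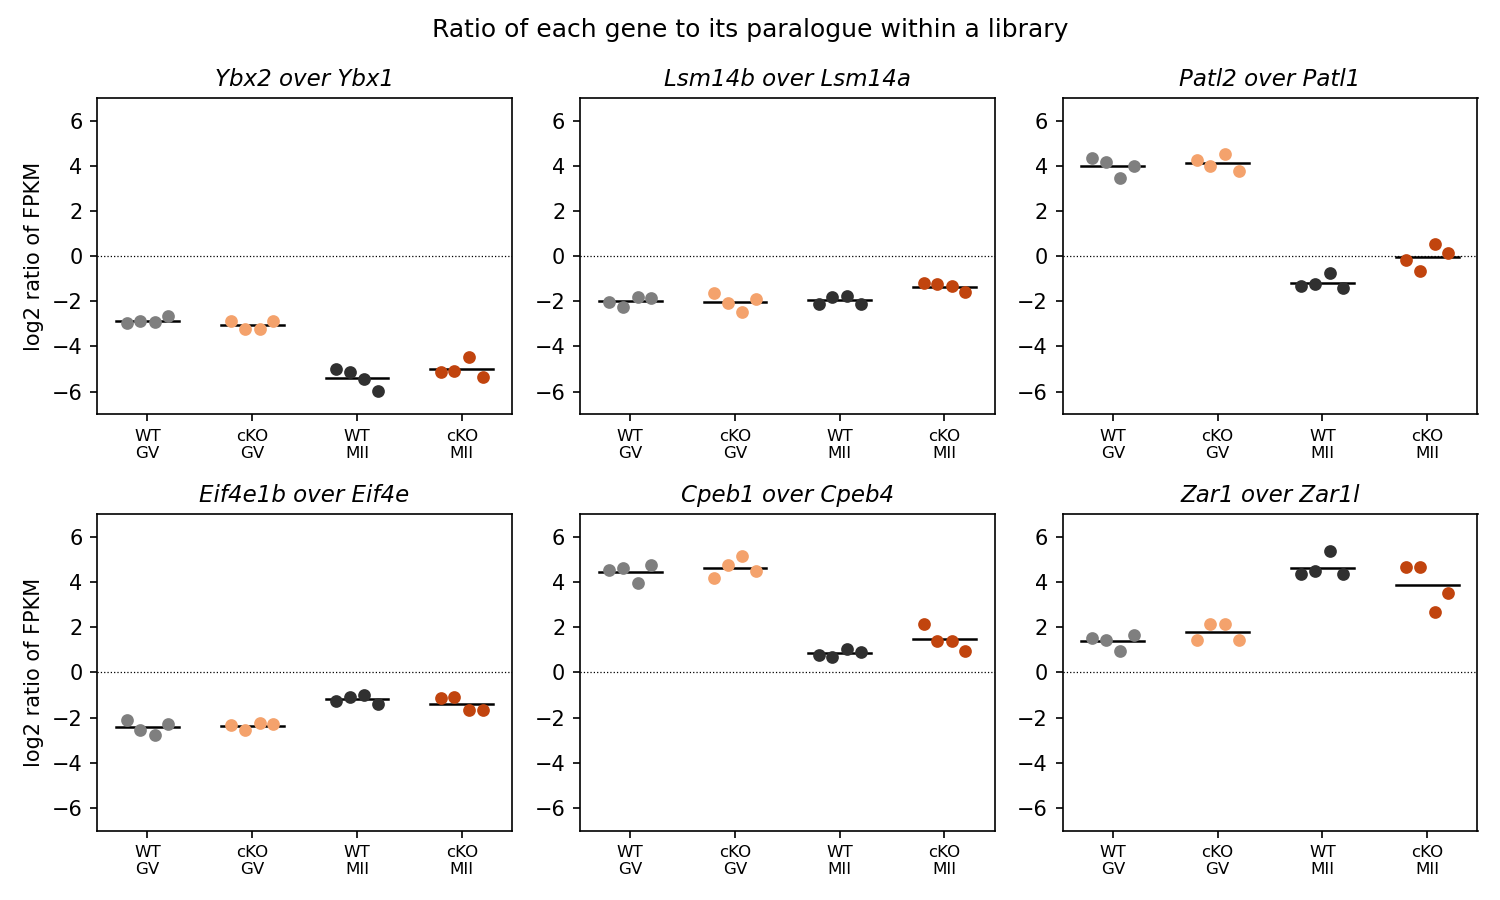
Log2 ratio of FPKM of each gene to its relative within a library, in 4 groups of 4 libraries (points) with group means (lines); the dotted line marks equal levels. Between GV oocyte and egg the ratio of Patl2 to Patl1 crosses from 3.99 to -1.18 in WT, and that of Lsm14b to Lsm14a is highest in Psma7 cKO eggs (-1.35).

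A list of 24 relatives and partners of these genes was examined with the same fits. At maturation 9 of 20 tested rose and 6 fell in WT, and 8 rose and 7 fell in Psma7 cKO. These 15 of 20 in each genotype are close to the 78.5% and 74.0% called among all entries, but the split by direction differed. Of all entries 26.1% rose and 52.4% fell in WT, and 23.0% rose and 51.0% fell in Psma7 cKO. The median log2 fold change of the related genes was 0.08 in WT and -0.19 in Psma7 cKO, beside -0.44 and -0.42 over all entries. In all, 14 related genes passed in both genotypes, each in the same direction. The largest changes were those of Eif4e2, a cap-binding protein that blocks translation, which fell (log2 fold change -2.03 in WT and -1.76 in Psma7 cKO), of Sympk, a scaffold for polyadenylation, which rose (1.57 and 1.91), and of Caprin1, an mRNP protein, which fell (-1.13 and -1.35). Eif4e2 in eggs was below 1 FPKM in all libraries but Psma7 cKO replicate 3 (1.89 FPKM), and Sympk was below 1 FPKM in all GV libraries, so these changes are understated by the floor of 1 FPKM.

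Between genotypes 0 of 20 related genes were called in GV oocytes and 0 had an unadjusted p under 0.05, beside 0.118% and 10.7% of all entries. In eggs 3 of 19 were called, 1 higher and 2 lower, where 6.53% of all entries were higher and 1.49% lower. Of the 19, 10 had an unadjusted p under 0.05, as did 29.4% of all entries. Without overlap 7 were lower and 1 higher, beside 7.06% and 13.6% of all entries. The median log2 difference was -0.17, beside 0.07 over all entries. Stau1, a double-stranded RNA-binding protein, was higher in Psma7 cKO eggs, at 106, 86.5, 95.4 and 85.5 FPKM against 69.2, 69.2, 77.1 and 70.7 FPKM in WT (log2 difference 0.38, limma adjusted p = 0.033). Ddx6, the helicase that holds mRNA in repressed particles with Lsm14 and Pat1 proteins, was lower, at 8.27, 6.81, 8.90 and 7.98 FPKM against 10.1, 11.7, 10.6 and 10.2 FPKM (log2 difference -0.42, limma adjusted p = 0.048). Lsm14a was lower too, at 63.0, 62.8, 68.3 and 72.0 FPKM against 89.5, 78.4, 79.7 and 77.2 FPKM (log2 difference -0.29, limma adjusted p = 0.048). None of the 3 overlapped between genotypes. The calls of Ddx6 and Lsm14a were lost on leaving out any of the 8 egg libraries (limma adjusted p from 0.053 to 0.13), and that of Stau1 held only without Psma7 cKO replicate 2 or 4 (0.025 and 0.041) and was otherwise 0.058 to 0.10. The interaction called 0 of 20 related genes, with 3 at an unadjusted p under 0.05, beside 1.26% and 17.7% of all entries.

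The entries whose profile over the 16 libraries was most like the mean profile of the 10 genes were Cpsf4l (Pearson r = 0.995), Zfp296 (0.992), Gmpr (0.991), Ddx39b (0.989) and Gja4 (0.989), among 4533 entries with a mean of at least 10 FPKM. The libraries fall into a GV and an MII cluster, and the mean profile averages genes that went in both directions, so likeness to it is not likeness to each of the 10.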

How the data were processed

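The authors deposited FPKM values per gene for 16 libraries. The submitters' processing notes name TopHat2 2.1.1, Cufflinks 2.2.1 and build mm10; the annotation is not given in the sources used here. The ERCC spike-in named in the protocol has 0 entries in the table, so no scaling to it was made. Groups and replicate numbers came from the sample titles, and 0 columns were left unused. The 10 genes, the 24 related genes and the marker lists were chosen with earlier results of these data known. Where a name had several entries, the entry with the highest mean carries the name.

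FPKM below 1 were set to 1, after the methods of the study, and log2 values were compared with limma 3.58.1 in R 4.3.3 (empirical Bayes with intensity trend) over all entries with a mean of at least 1 FPKM, with Benjamini-Hochberg adjustment and a threshold of 0.05. Each comparison used its own 8 libraries, the interaction all 16. The fits were tested on simulated data. Fold changes on the floored scale understate changes of genes near 1 FPKM. Replicates are pools of oocytes, and where pools share animals p-values cover the spread between pools only. No 2 libraries held identical values. Depth was estimated with GENCODE M21 transcript lengths, so fragment numbers are approximate and no counting intervals were attached. The 3′ UTR transcript was chosen after shorter UTRs had been seen. For 1 gene the 3′ UTR is not reported here. All 10 genes and Psma7 are named, with related genes called between genotypes or in the interaction, the 3 related genes with the largest changes among those called at maturation in both genotypes, and the 5 most alike entries. Patl1, Ybx1 and Eif4e are named for the ratios, which were set for 6 pairs. Protein sequences were not analysed here. Python 3.11.15, numpy 2.4.6, pandas 2.3.3 and matplotlib 3.10.9 were used. Alternatives were another floor, pseudocount, filter and scaling, no trend, array weights, a replicate block, all libraries in one fit, entries summed by name, other fold rules and each library left out.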

Additional observations from a re-analysis of the deposited data

Results flagged for a closer look

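In 2 of the 40 sets of 4 libraries (10 genes in 4 groups) 1 library lay far from the other 3 by Dixon's criterion, and chance alone gives about 1 set in 20. Zar1 was at 377 FPKM in WT egg replicate 3, against 262 to 270.5 FPKM in the other WT eggs. Cpeb1 was at 109 FPKM in WT GV replicate 3, against 135 to 140.0 FPKM in the other WT GV oocytes. No gene of the 10 passed the test of a genotype difference between stages.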

How the results depend on the processing

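Over 995 refits of single genes (10 genes, 5 comparisons, each alternative), 954 kept direction and call, 0 calls were lost, 10 calls were gained and 31 changed sign, none of the 31 in a called result. The 9 genes called at maturation kept call and direction in all 331 refits. The number of genes higher in Psma7 cKO eggs, 0, became 2 (Zar1l and Cpeb1) with no filter on low values, where limma warned that most residual variances were 0, and 2 with all 16 libraries in one fit, 1 (Cpeb1) without Psma7 cKO egg replicates 3 and 4, an alternative chosen after seeing the data, and 0 to 2 on leaving out 1 library; the number in the interaction was 0 to 1. By a 2-fold rule 1 gene (Zar1l) passed between genotypes in eggs, in place of 0. At maturation 6 passed in WT and 7 in Psma7 cKO, in place of 4 and 3. The share of all entries that pass the 2-fold rule was not counted. Zar1 at maturation was 0.16 in WT and 0.028 in Psma7 cKO after rescaling. With array weights Patl2 in GV oocytes was -0.0059. Without Psma7 cKO egg replicates 3 and 4, Eif4e1b in eggs was 0.058 and Zar1 in the interaction 0.036. Leaving out 1 library gave log2 ranges that crossed 0. In GV oocytes these were -0.13 to 0.051 for Cpeb1, -0.17 to 0.016 for Dazl, -0.023 to 0.18 for Eif4enif1, -0.082 to 0.12 for Lsm14b, -0.031 to 0.25 for Patl2, -0.13 to 0.043 for Ybx2 and -0.013 to 0.12 for Zar1l. In eggs they were -0.10 to 0.032 for Cpeb4 and -0.015 to 0.21 for Eif4enif1, at maturation in WT -0.19 to 0.029 for Zar1, and in the interaction -0.057 to 0.13 for Dazl, -0.037 to 0.10 for Eif4e1b and -0.10 to 0.15 for Eif4enif1. The labels give replicates only a number, and deviations of same-numbered libraries correlated from -0.50 to 0.29, so the numbers were not taken to pair samples; with the number as a block the genes called were 0 in GV oocytes, 0 in eggs, 4 higher and 5 lower at maturation in each genotype, and 0 in the interaction. Over all entries the calls in eggs were 761, with a lowest count of 3 (without WT egg replicate 3), 108 with the block and a highest of 1498 (all 16 libraries in one fit); in GV oocytes 13, from 3 to 124; in the interaction 134, from 29 to 651; at maturation 5112 to 8487 in WT and 4962 to 8179 in Psma7 cKO. The fewest fragments behind an egg value were an estimated 29.7 for Ybx2 and 86.8 for Patl2.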
